A study of Mus musculus with 4 samples.

Results

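Bach2 on chromosome 4 of the mouse was described here through 759 windows of 100 bp, which are all the windows of the deposited MeDIP-seq table that overlap chr4:32237413-32587109 (mm10), Bach2 as annotated plus 1000 bp at either end. They are 759 of 1048575 listed windows. In MeDIP-seq an antibody against 5-methylcytosine captures methylated DNA fragments for sequencing, and the input is DNA sequenced without this capture. The cells were thymic NKT cells, which recognise lipid antigens on CD1d, and were sorted as cells that bind a CD1 tetramer. All 4 libraries came from C57BL/6 mice, with 1 MeDIP library and 1 input library for WT and the same for PLZFon. What the PLZFon allele is, what drives it, the age of the mice and how many were pooled are not given in the labels. PLZF, the product of Zbtb16, is the transcription factor that directs the effector programme of NKT cells. Zbtb16 was not analysed here, so the genotype labels were not checked against the targeted gene. The titles were followed where the antibody label disagrees with them, as it names no antibody for PLZFon MeDIP and one for WT input.

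BACH2 is a basic leucine zipper repressor of the CNC family that binds DNA as a dimer with a small Maf protein. In T cells it occupies sites of AP-1 factors and restrains effector genes, and in B cells it delays plasma cell differentiation. Methylation of CpG sites along the body of a gene is common in transcribed mammalian genes, whereas CpG-rich starts of active genes usually lack it.

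The gene spans chr4:32238413-32586109 and is 347697 bp long on the plus strand. Bach2os, a long non-coding RNA gene, is annotated within it at chr4:32559680-32571662. RefSeq names 12 transcripts of Bach2, of which 1 is curated, and its promoter table places a start of the gene at position 32417435, which is 179 kb inside the gene. No exon map was used here, so windows are placed by distance from these starts and not as exonic or intronic. The promoter at the internal start is printed because a group of windows over it had few PLZFon reads. It is the plus strand of chr4:32417185-32417484 from RefSeq (GRCm38.p6, the same primary assembly as mm10), with 250 bases before and 50 after the start and each CpG in capitals.
Bach2: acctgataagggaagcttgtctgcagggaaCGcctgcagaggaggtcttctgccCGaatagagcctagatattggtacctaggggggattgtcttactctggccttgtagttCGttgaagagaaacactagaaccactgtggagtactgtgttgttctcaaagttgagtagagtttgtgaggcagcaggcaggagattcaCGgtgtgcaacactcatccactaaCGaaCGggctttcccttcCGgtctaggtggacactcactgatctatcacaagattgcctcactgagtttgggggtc
The sequence holds 7 CpG sites, all before the start, at positions 31, 55, 113, 201, 225, 229 and 243 counted from 1 at its 5′ end. The median over 21263 promoters of protein-coding genes of the same length is 13 CpG sites, and 38.5% of them hold 7 or fewer. Its GC content is 50.3%, against a median of 56.3%. The AP-1 core TGAGTCA, which BACH2 dimers also bind, was searched on both strands (TGACTCA on the other) and is not among these letters, and 4.66% of promoters hold it.

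The MeDIP libraries held 15143451 (WT) and 10635946 (PLZFon) reads and the inputs 60689327 and 50365402, recovered from the deposited counts and RPKM values. Each library is the only one of its group, so no value below tests genotype or has a replicate check. Whether a difference lies in each cell or in the mix of sorted cells cannot be told apart. Every listed window had 10 or more MeDIP reads over the 2 genotypes and 1 or more CpG sites, and a window that is not listed may still hold reads. Each read appears in about 4 adjoining windows, so a summed count was divided by 4 before intervals were computed. Only listed windows are summed, and a read at the end of a run of them enters fewer than 4. Intervals of sums are therefore too wide where runs are short, and some that include equality may exclude it with a smaller divisor. Ratios are PLZFon over WT shares of library reads with an exact (Clopper-Pearson) 95% interval in brackets, which covers counting error only and not differences between mice or PCR duplicates.

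Over the whole locus the MeDIP signal of Bach2 did not differ between the WT and PLZFon libraries beyond counting error. Summed over its 759 windows the raw MeDIP counts were 9007 (WT) and 6326 (PLZFon), and the input counts 7828 and 6574. Scaled by depth, the mean was 0.784 RPM per window (RPM is reads scaled to 1000000 reads of the library) in both MeDIP libraries, and 0.170 (WT) and 0.172 (PLZFon) in the inputs. This gave a ratio of 1.0 (0.937 to 1.07) in MeDIP and, in the inputs, of 1.01 (0.947 to 1.08). The table as a whole had a MeDIP ratio of 0.964 (0.963 to 0.966), a value inside the interval of Bach2.

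The listed windows of Bach2 had a higher depth-scaled level in MeDIP than in input in both genotypes. The MeDIP over input ratio was 4.61 (4.34 to 4.90) in WT and 4.56 (4.25 to 4.89) in PLZFon. All listed windows together gave 4.44 and 4.22. Because windows are listed by their MeDIP reads, these enrichments are comparable only with those of other listed windows. In the authors' deposited table the mean relative methylation score, which corrects the signal for CpG content, was 0.629 (WT) and 0.576 (PLZFon) in Bach2, next to 0.625 and 0.570 over all listed windows. This score does not appear to be scaled by depth. In chr4:32504401-32504500, with 11 reads in each MeDIP library, it was 0.43 in both. The WT MeDIP library is the deeper, so the score is not compared between genotypes here.

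Single windows held few reads. WT MeDIP counts ran from 2 through a median of 10 to 44, and PLZFon MeDIP counts from 1 through 7 to 34. In the inputs they ran from 1 through 10 to 33 (WT) and from 2 through 8 to 22 (PLZFon). After scaling by depth, 374 windows had a PLZFon value at or above the WT value and 385 had a lower one. No window of Bach2 reached 60 input reads over both libraries, a level of pile-up found in 0.493% of listed windows.

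The profile along the gene was read in 36 bins of 10 kb, of which 35 held listed windows, with 4 to 43 windows in each and a median of 20. Only windows of the locus, chr4:32237413-32587109, were binned, so the first and last bins were only partly covered. WT MeDIP levels ran from 0.487 to 1.13 RPM per window over the bins, with a median of 0.769. PLZFon MeDIP levels ran from 0.282 to 1.34, with a median of 0.752. The inputs lay lower, at 0.101 to 0.453 (WT) and 0.103 to 0.377 (PLZFon). Over the 34 bins with at least 20 MeDIP reads, Pearson's r between the 2 MeDIP levels was 0.551 and Spearman's rho 0.692. These are descriptions over bins that share libraries and CpG content, and bins are not replicates.

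**Figure D1:**
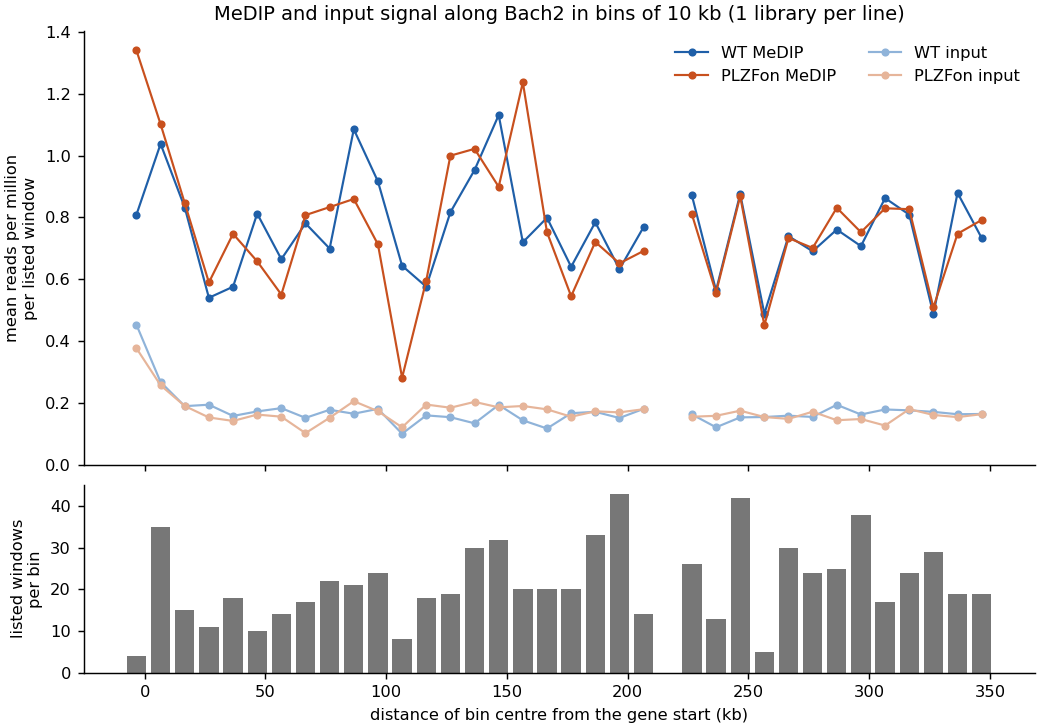
The upper panel plots mean RPM per listed window in each library against the distance of the 10 kb bin from the start of Bach2 in kb, and the lower panel plots the number of listed windows in each bin. The MeDIP lines lie between 0.282 and 1.34 and the input lines between 0.101 and 0.453, and 1 bin has no listed window.

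Of these 34 bins, 18 had a MeDIP ratio above 1 and 16 below, and 27 lay within 1.25-fold of equality. A single bin, or 1 of 34, had an interval that excludes equality, where 3.09% of all such bins in the table did. In the inputs 1 of 35 bins did, with a background of 1.8%. The count of bins in Bach2 is thus near what the rest of the table shows.

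The bin apart was chr4:32390001-32400000, about 157 kb from the gene start. Its summed counts over 20 windows were 218 in WT MeDIP and 263 in PLZFon MeDIP, and 175 and 192 in the inputs. The ratio was 1.72 (1.18 to 2.51) in MeDIP and 1.32 (0.859 to 2.04) in the inputs. The PLZFon library was therefore the higher in this bin although it is the shallower of the 2 MeDIP libraries. The other bins of highest ratio were the first, with 1.66 (0.717 to 3.88), and chr4:32270001-32280000 with 1.3 (0.801 to 2.09). The first covers only the part of chr4:32230001-32240000 from 32237413 on, with only 4 windows. Both of their intervals include equality.

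At the low end chr4:32340001-32350000 had a ratio of 0.438 (0.144 to 1.14) on summed counts of 78 (WT) and 24 (PLZFon) over 8 windows, with 49 in each input. The next were chr4:32330001-32340000 at 0.778 (0.530 to 1.13) and chr4:32320001-32330000 at 0.792 (0.545 to 1.14). These 3 bins adjoin each other, and none of their intervals excludes equality with sums divided by 4.

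**Figure D2:**
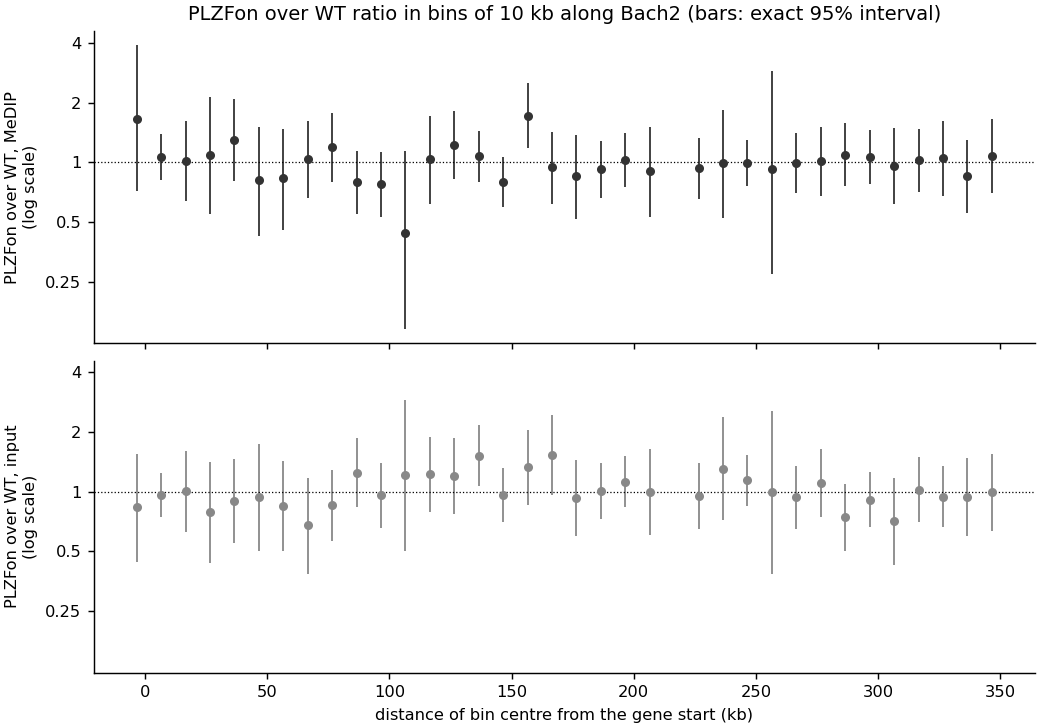
Points give the PLZFon over WT ratio in each 10 kb bin of Bach2 on a log axis, for MeDIP (upper panel) and input (lower panel), with exact 95% intervals as bars, against distance from the gene start in kb. In MeDIP 1 bar lies wholly above 1, in the bin at 1.72, and in the inputs the bar of another bin does, at 1.52.

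Enrichment over input also varied along the gene. In WT it was highest at chr4:32370001-32380000, with 7.08 (5.13 to 9.85), followed by 6.78 and 6.55 in the bins starting at 32400001 and 32320001. It was lowest in the first bin, at 1.79 (0.831 to 3.62), whose listed windows all lie before the gene start. The inputs of that bin were the highest of all bins, at 0.453 (WT) and 0.377 (PLZFon) RPM per window. Their part in the low enrichment was not tested. Next lowest were 2.77 and 2.84 in the bins starting at 32260001 and 32560001. The second of these holds most of Bach2os, over which the enrichment was 2.99 (2.16 to 4.12) in WT and 3.55 (2.41 to 5.21) in PLZFon.

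In PLZFon the highest bins were chr4:32300001-32310000 with 7.86 (4.51 to 14.0), chr4:32540001-32550000 with 6.52 and chr4:32390001-32400000 with 6.49. The lowest were those starting at 32340001 with 2.32 (0.717 to 6.64), 32490001 with 2.91 (0.866 to 8.92) and 32350001 with 3.05. The highest bins of WT and PLZFon were different ones, and over 34 bins the r between the 2 enrichments was 0.214 and rho 0.353. The interval lay above 1 in 34 of 35 bins in WT and in 33 of 35 in PLZFon. Listing windows by their MeDIP reads raises this ratio, so these counts are no evidence of enrichment. The input of the bin with the highest WT enrichment was itself lower in WT than in PLZFon, with an input ratio of 1.51 (1.07 to 2.15), and its part in that enrichment was not tested. The bin with the highest PLZFon enrichment had the lowest PLZFon input of all bins, 0.103 RPM per window. Its input ratio was 0.675 (0.382 to 1.17) and its MeDIP ratio 1.03, and the part of its input was not tested either.

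Windows were unevenly spread. They made 220 runs of adjoining windows with a median of 3, of which 50 were single windows and 90 had at least 4. The longest run was chr4:32337601-32339800, 22 windows with summed counts of 317 (WT) and 176 (PLZFon) and a ratio of 0.791 (0.534 to 1.16). The next, chr4:32520501-32522100, had 16 windows, counts of 191 and 142 and a ratio of 1.06 (0.666 to 1.67). Neither interval excludes equality.

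The longest stretch without a listed window was chr4:32443301-32461800, 18.5 kb, which leaves 1 bin empty. Among 1071 protein-coding loci over 100 kb the median longest gap was 15.1 kb, and 39.3% had one at least as long as that of Bach2. Such a gap is therefore common in genes of this size. Listed windows covered 21.7% of the Bach2 locus, and the 249 protein-coding loci over 300 kb had a median of 6.37%, with 94.0% of them below Bach2. Among the 647 protein-coding loci with at least 1000 MeDIP reads the median was 18.9%, and 62.6% of them lay below Bach2.

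The stretch with the most MeDIP signal summed over both genotypes was also the highest in WT MeDIP, while the highest PLZFon MeDIP windows were those of the block at chr4:32397401-32397900 described below. The windows chr4:32385801-32385900, chr4:32385901-32386000 and chr4:32386001-32386100 held 44, 41 and 41 reads in WT MeDIP and 25, 24 and 24 in PLZFon MeDIP. Their inputs held 10, 14 and 13 (WT) and 8, 9 and 9 (PLZFon). Enrichment over input in the first of them was 17.6 (8.74 to 39.3) in WT and 14.8 (6.47 to 38.0) in PLZFon. The stretch lies 147 kb from the gene start, in a run of 12 windows (chr4:32385501-32386700) with summed counts of 311 and 182 and a ratio of 0.833 (0.565 to 1.22). WT was the higher library in all 3 windows after scaling, and their intervals include equality, as in the first with 0.809 (0.474 to 1.35).

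A window was counted as apart when its MeDIP reads of both genotypes summed to 20 or more, its ratio was 2-fold or more up or down, and its interval excluded equality. Of the 759 windows 300 had that many reads, and 9 were apart, 8 higher and 1 lower in PLZFon. That is 3% of 300, and in the whole table it was 3.3%, so the share in Bach2 is near the background.

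Of the 8 higher windows 5 adjoin at chr4:32397401-32397900, 159 kb from the gene start, and share reads, so they are about 1 observation. Their reads were 14, 23, 19, 18 and 14 in WT MeDIP and 22, 33, 34, 31 and 23 in PLZFon MeDIP. The PLZFon count was the larger in each of the 5 windows, before any scaling. The highest ratio among windows with at least 20 MeDIP reads was that of chr4:32397601-32397700, with a CpG factor of 5. Its inputs held 10 (WT) and 9 (PLZFon) reads and its MeDIP ratio was 2.55 (1.41 to 4.73). The CpG factor is the number of CpG sites that begin in the window. Over the block the summed counts were 88 and 143 in MeDIP and 48 and 49 in the inputs, which gave ratios of 2.31 (1.32 to 4.13) and 1.23 (0.509 to 2.98). The block lies in the bin with the ratio of 1.72, and without it that bin had 1.31 (0.773 to 2.23), with counts of 130 and 120. The 5 windows were left out because they were the highest, so a lower ratio and a wider interval followed from that choice.

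The other windows apart lay singly or in a pair. The window chr4:32245901-32246000, 7.49 kb from the gene start, held 13 reads in WT MeDIP and 21 in PLZFon MeDIP, with 18 and 10 in the inputs, and its ratio was 2.30 (1.10 to 5.0). The pair chr4:32554001-32554200 held 11 and 10 reads in WT MeDIP and 18 and 17 in PLZFon MeDIP. The second window of the pair had a MeDIP ratio of 2.42 (1.05 to 5.92) beside inputs of 9 and 17 reads and an input ratio of 2.28 (0.960 to 5.79), so the inputs moved the same way, and their part in the MeDIP ratio was not tested. The lower window, chr4:32292301-32292400, held 18 reads in WT MeDIP and 4 in PLZFon MeDIP, with 10 and 7 in the inputs, and a ratio of 0.316 (0.0779 to 0.961). Its neighbour chr4:32292201-32292300 held 16 and 4 reads, a ratio of 0.356 (0.0866 to 1.10). The next lowest among windows with at least 20 MeDIP reads, chr4:32327601-32327700, had 19 and 6 reads in MeDIP, a ratio of 0.450 (0.147 to 1.17), and 4 and 16 reads in the inputs, where the ratio was 4.82 (1.55 to 19.8).

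By the authors' deposited table, 24 of the 759 windows, or 3.16%, had an unadjusted edgeR p-value below 0.05, where 3.31% of all listed windows did. They form 15 blocks, 8 higher and 7 lower in PLZFon. None of the 759 had an adjusted p below 0.05 in the authors' deposited table, which holds 151 such windows in all. With 1 library per genotype these p-values cannot carry the spread between mice. The lowest p of Bach2 in the authors' deposited table was that of chr4:32397601-32397700 in the block above, with a log2 fold change of 1.40, p = 0.00103 and an adjusted p of 0.788.

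The next blocks by that p rested on few reads. At chr4:32501601-32501800 one window held 17 reads in WT MeDIP and 1 in PLZFon MeDIP, with 10 and 5 in the inputs, and a ratio of 0.0838 (0.00200 to 0.535). At chr4:32533101-32533200 the counts were 4 and 13, with 7 and 6 in the inputs, and the ratio was 4.63 (1.43 to 19.5). The windows of both blocks had fewer than 20 reads over both MeDIP libraries.

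The annotated gene start lay in a stretch without listed windows, and the MeDIP ratio around it did not depart from equality. No window was listed between 32237801 and 32241100, so none lay within 500 bp of the start. The same held for 80.2% of 5177 protein-coding gene starts in the range of the table. From 500 bp before to 2500 bp after the start Bach2 again had none, as did 44.4% of these genes. Within 5000 bp of the start 38 windows gave a ratio of 1.16 (0.897 to 1.49), and the rest of the gene gave 0.997 (0.934 to 1.06) over 744 windows. Enrichment over input near the start was 3.35 (2.66 to 4.21) in WT and 3.86 (2.99 to 4.97) in PLZFon, below 4.71 and 4.60 in the rest of the gene. In WT the enrichment intervals of both regions do not overlap, and the difference itself was not tested. The MeDIP level itself was higher near the start, at 0.985 (WT) and 1.14 (PLZFon) RPM per window against 0.785 and 0.782. The inputs were also higher there, at 0.294 (WT) and 0.296 (PLZFon) against 0.167 and 0.170, and their part was not tested. Most of the 38 windows lay before the start, outside the gene.

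**Figure D3:**
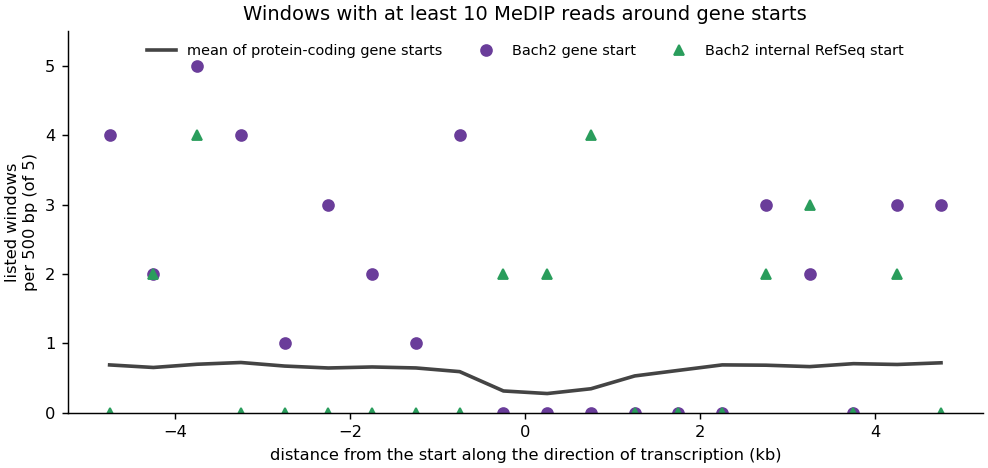
The plot gives listed windows per 500 bp (at most 5) against distance from the start in kb, for the annotated gene start of Bach2, its internal RefSeq start and the mean over protein-coding gene starts. The mean dips at the start, Bach2 has 0 listed windows within 500 bp of its gene start, and its internal start has 4.

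At the internal RefSeq start, whose promoter is printed above, 4 windows were listed within 500 bp, a number reached by 6.51% of protein-coding gene starts. The windows starting at 32417201, 32417301, 32417401 and 32417501 held 10, 17, 14 and 12 reads in WT MeDIP and 2, 2, 2 and 1 in PLZFon MeDIP. In the inputs the raw counts lay the other way in 3 of the 4, with 6, 6, 7 and 9 reads in WT and 8, 12, 11 and 8 in PLZFon. Scaled by depth the PLZFon input was the higher in all 4, with ratios of 1.61, 2.41, 1.89 and 1.07, whose intervals include equality. The WT MeDIP library is the deeper, and after scaling by depth it was still the higher in each window. Its levels ran from 0.660 to 1.12 RPM, and those of PLZFon MeDIP from 0.0940 to 0.188. These windows were named after their values were seen, they share reads and are about 1 observation, and each had fewer than 20 MeDIP reads. Each reached the listing minimum of 10 reads through WT MeDIP alone. The number of listed windows here is therefore not independent of the low ratio.

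The strongest of them, chr4:32417301-32417400, had a ratio of 0.168 (0.0188 to 0.706). The 3 windows that overlap the printed 300 bases had together a ratio of 0.208 (0.0134 to 1.14), which includes equality. Their summed counts of 41 (WT) and 6 (PLZFon) became 10.25 and 1.5 after division by 4, fewer reads than the strongest window holds alone. The divisor thus makes this interval too wide, and it cannot be set against that of the single window. Of 9786 protein-coding promoter intervals of this length in the table's range, 10.1% held a listed window, 992 in number. In 2.62% of those the strongest window was lower in PLZFon with an interval that excludes equality, and in 13 of them, 1.31%, the ratio was as low as in Bach2. Within 5000 bp of the internal start the 21 windows had a ratio of 0.664 (0.399 to 1.08) in MeDIP and 0.992 in the inputs, again with sums divided by 4. On either side of this start the gene did not differ between genotypes beyond counting error, with 1.0 (0.913 to 1.10) upstream and 0.988 (0.901 to 1.08) downstream.

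**Figure D4:**
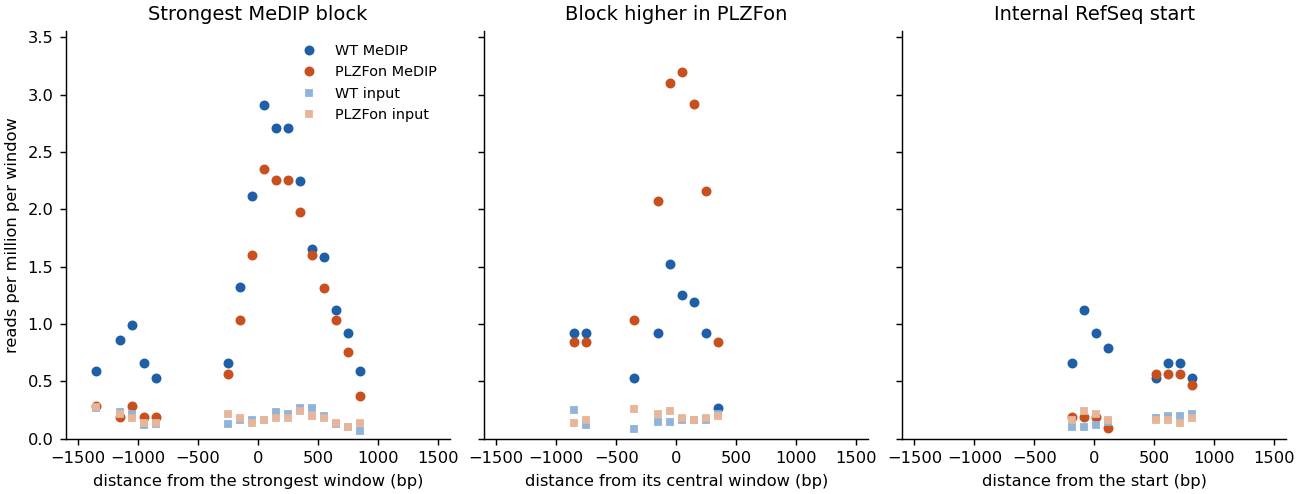
RPM per 100 bp window is plotted for the 4 libraries against distance in bp at 3 sites of Bach2. The stretch strongest in WT and in the sum of both libraries peaks at 2.91 in WT MeDIP and 2.35 in PLZFon MeDIP, the block higher in PLZFon reaches 3.20 in PLZFon MeDIP against 1.25 in WT MeDIP in the same window, and at the internal RefSeq start the 4 nearest windows have a PLZFon MeDIP level at or below 0.188.

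Pull-down in Bach2 was higher in windows with 5 CpG sites than in those with 1, though not at each step between. In WT the enrichment over input was 4.16 (3.74 to 4.62) in the 267 windows with 1 CpG, 4.70 with 2 CpG sites and 6.11 (4.51 to 8.31) in the 29 windows with 5. In PLZFon the same classes gave 3.99, 4.80 and 6.66. In all listed windows the rise continued to 7.36 (WT) and 6.72 (PLZFon) at a CpG factor of 7 or more. The 8 windows of Bach2 with 7 or more CpG sites gave 3.20 (1.58 to 6.38) in WT, an interval below the value of all listed windows, and 5.97 (2.66 to 13.7) in PLZFon, an interval that includes it.

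With the classes of 4 or more joined, a grouping that was not planned, 106 windows of Bach2 gave 5.06 (4.32 to 5.94) in WT against 6.00 in all listed windows. In PLZFon they gave 5.59 (4.63 to 6.75) against 5.55. Such windows were 14.0% of the listed windows of Bach2 and 17.3% of all. The MeDIP ratio between genotypes ran from 0.816 to 1.34 over the CpG factor classes of Bach2, and every class had an interval that includes equality. The highest CpG factor in the gene was 8, in 4 windows whose counts were 11 and 11, 8 and 11, 5 and 7, and 4 and 7 reads in WT and PLZFon MeDIP.

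**Figure D5:**
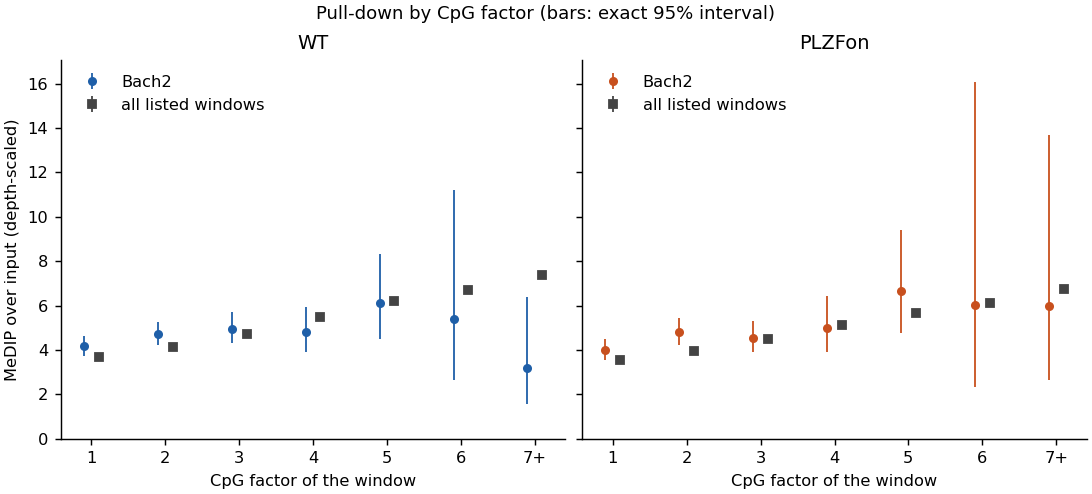
The plots give MeDIP over input against the CpG factor of the window for WT and PLZFon, for Bach2 and for all listed windows, with exact 95% intervals as bars. Both sets are higher at a CpG factor of 5 than at 1, and at 7 or more the WT value of Bach2 is 3.20 where all listed windows have 7.36.

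Among the 647 protein-coding loci holding 1000 MeDIP reads or more the median ratio was 0.960, with 90% of loci between 0.874 and 1.06, and Bach2 lay above 77.3% of them. Its enrichment over input exceeded that of 53.8% of these loci in WT and of 61.7% in PLZFon. At 20 reads or more, 7668 protein-coding loci were measured and 6.25% had an interval that excludes equality, 95 higher and 384 lower in PLZFon. Bach2 was not one of them.

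The other long genes of T cell regulators that were set beside it did not share 1 pattern. Tox, an HMG-box factor of T cell development, had a ratio of 1.0 (0.845 to 1.19), with 4.62% of its windows listed. Hivep3, a zinc finger factor, had 0.988 (0.919 to 1.06) and Nfkb1, an NF-kappaB subunit, 0.991 (0.887 to 1.11). Lef1, an HMG-box factor of the Wnt pathway expressed in immature T cells, had 0.571 (0.50 to 0.650), an interval that does not overlap that of Bach2. Its enrichment over input was 5.10 in WT and 3.0 in PLZFon, where Bach2 had 4.61 and 4.56.

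The loci most like Bach2 in depth-scaled reads per listed window over the 4 libraries, by Euclidean distance of log2 values among 646 other loci with at least 1000 reads, were Map3k20, Ube4b, Ccdc60, Baz2b and Lhfp. Their distances ran from 0.0282 to 0.0475, against a median of 0.263. Their MeDIP ratios ran from 0.970 to 1.01, which the choice by reads in the same MeDIP libraries fixes near that of Bach2.

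The genes that act with BACH2 were counted by list, on the same rule for loci. The list of its CNC relatives and small Maf partners holds 9 genes, with Bach2 itself as 1 of them. Of these, 4 lay in the range of the table, again with Bach2 among them. Their median log2 ratio was -0.16, against -0.06 over all loci with at least 20 reads. Of those 7668 loci 6.25% had an interval that excludes equality. Mafk, a small Maf partner, was the 1 of 4 with an interval that excludes equality, at 0.543 (0.293 to 0.964) on 45.25 WT and 17.25 PLZFon MeDIP reads. Nfe2l2, the regulator of the oxidative stress response, had 0.902 (0.667 to 1.21) and Nfe2l3, its relative, 0.891 (0.663 to 1.19). Of the AP-1 genes, whose products share BACH2 sites, 3 of 10 had at least 20 reads. None of the 3 departed from equality, with log2 ratios from -0.29 (Batf3) through -0.21 (Fosl2) to 0.06 (Fosb). Jun had no listed window.

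Of 7 upstream regulators 4 were measured, with a median log2 ratio of -0.15, against -0.06 and 6.25% called over all 7668 loci. Pax5, the B cell identity factor, was the 1 with an interval that excludes equality, at 0.848 (0.756 to 0.95), and Runx3 had a log2 ratio of -0.19. Of 16 genes that BACH2 is known to repress 5 were measured and none departed from equality, with a median log2 ratio of -0.11. Gata3, a factor of type 2 responses, had 0.45 and Klrg1, a receptor of terminally differentiated T cells, -0.27.

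Methylation reads do not show which cells were sorted, so marker genes of other cells are given as counts only. Of the markers of other thymocytes 4 of 6 were measured with 0 apart and a median log2 ratio of 0.05. Of the B cell markers 4 of 7 were measured with 1 lower, Pax5 again, and a median of -0.30, where 384 of 7668 protein-coding loci were lower and their median was -0.06. Of the myeloid markers 2 of 5 were measured with 0 apart and a median of 0.02. Their part in the values of Bach2 was not tested.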

How the data were processed

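MeDIP and input libraries of sorted thymic NKT cells, 1 per genotype, were used. Per the labels' protocols, DNA was released by proteinase K (50 °C, 12 to 18 h) and sheared to a median fragment of 180 to 230 bp. The submitters' processing notes name BWA, edgeR and mm10 without versions. Per the file headers, the authors' deposited table gives raw read counts, RPKM values and, for MeDIP, a relative methylation score for each 100 bp window. It also holds the CpG factor, a score of CpG content that equalled the number of CpG sites beginning in the window in 100% of 2642 windows checked against RefSeq promoters. The authors' edgeR columns are deposited as log2 fold changes and log2 mean levels with p-values, per the file headers.

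Here library totals were recovered as summed counts over summed RPKM, since the table ends within chromosome 7 and holds only part of each library. Sums over windows were divided by 4, because in the inputs the squared difference between windows rose with distance up to 4 windows and little beyond. Intervals and ratios were computed with Python 3.11.15 (scipy 1.17.1), and TMM factors for an alternative with edgeR 4.0.16. The code was checked on simulated counts. Named windows were the 3 strongest, the 3 highest and 3 lowest ratios among windows with at least 20 MeDIP reads, those at least 2-fold apart, those of highest CpG factor and that of the authors' lowest p; named bins were the 3 highest and lowest. The gene and the lists were chosen with earlier results of these data known. The list of cofactor genes is not reported here. Alternatives changed the scaling, bins, flanks, read minimum, CpG minimum and windows per read. Depth sets the precision: 20 reads over both libraries give an interval several-fold wide.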

Additional observations from a re-analysis of the deposited data

How the results depend on the processing

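Of 50 alternative values, 41 stayed as reported. For the locus, input and gene start ratios and for enrichment over input, this means a value within the reported interval. A count had to stay within 1.5 times. The highest bin and the internal promoter window had to keep their direction and an interval that excludes equality. The Bach2 locus ratio stayed between 0.990 and 1.04 over 12 alternatives, the input ratio between 0.994 and 1.01 over 4, and the ratio near the gene start between 1.15 and 1.27 over 5, all with intervals that include equality. With only windows of at least 20 MeDIP reads, enrichment over input was 6.55 in WT and 6.44 in PLZFon, since fewer and stronger windows enter. The count of 10 kb bins apart, 1 as reported, was 0 with bins of 20 kb, 2 with bins shifted by 5 kb and 2 with sums divided by 3. No divisor below 3 was tried. The count of windows apart, 9 as reported, was 23 with a minimum of 10 reads and 1 with a ratio of at least 3. The cause was not tested for the shifted bins. Among alternatives chosen after seeing the data, the bin of ratio 1.72 had 1.31 without its block of 5 windows. The internal promoter window of ratio 0.168 had 0.208 as part of a sum over 3 windows. The interval of that sum includes equality, but the sum over 3 windows was divided by 4, which widens it. No paired analysis was possible because each group has 1 library, and for the same reason no library could be left out. Scaling by the listed windows moved the locus ratio from 1.0 to 1.04. With a ratio of at least 1.5 the count of windows apart was again 9.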

Other observations

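The surroundings of Bach2 showed MeDIP ratios close to that of the gene. The 350 kb before the locus held 616 listed windows with a ratio of 0.988 (0.924 to 1.06), and the same length after it held 636 windows with 0.942 (0.881 to 1.01). Listed windows covered 17.6% and 18.2% of these flanks, below the 21.7% of Bach2. Among the protein-coding neighbours, Map3k7, a kinase of NF-kappaB signalling, had a ratio of 0.877 (0.689 to 1.11). Gja10, a connexin gene, had 0.836, Casp8ap2 1.06 (0.608 to 1.81) and Mdn1, a ribosome assembly factor, 0.975 (0.844 to 1.13). None of the 4 intervals excludes equality.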
